A study of Triticum aestivum with 24 samples.

Results

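The late phase of recovery from heat was followed in 8 of the 24 small RNA libraries of a wheat leaf study, namely the 4 libraries of heat-stressed plants taken at 1 day after treatment (1 DAT) and the 4 taken at 4 DAT. The 8 libraries were chosen by their labels alone, and all 202 annotated miRNA tags of 37 families were compared between the days. The plants were hexaploid wheat cv Chinese Spring (Triticum aestivum), grown from the seeds of 1 selfed plant. At the boot stage 72 of them spent 5 days at 37 °C, with ample water, and then went back to the growth conditions of the controls. Each library held leaf RNA of 18 plants, and because all plants were sampled on each day, the same 4 pools of plants stand behind both days, with the library number taken as the pool. The reference groups were unstressed plants at 1 and 4 DAT, 4 libraries on each day. A pool is not an individual, so the spread between libraries is that between pools of 18 plants, and a change in plant age over the 3 days is shared by both treatments.

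MicroRNAs are short RNAs that are cut from hairpin precursors, in plants mostly by DICER-LIKE1, and loaded into ARGONAUTE1, where they guide the cleavage or the repression of matching mRNAs. A precursor can give several overlapping products, called isomiRs, which differ by a shifted or shortened end. The conserved families act mainly on transcription factors of leaf development, while miR398 and miR528 act on copper proteins and antioxidant enzymes, and miR395 and miR399 on sulfate and phosphate supply. A wheat-specific part of the tags, of families such as miR1121, miR1133 and miR1136, comes from precursors found in many copies across the genome, many of them related to short inverted-repeat transposons.

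Several of the tags with the smallest p-values were counted beside near-identical forms, and they are printed here 5′ to 3′ in DNA letters with bases 2 to 8 (the seed, the part that usually pairs most strictly with a target) in capitals. In family miR166, whose targets are the HD-ZIP III factors of leaf polarity, 7 isomiRs of the 3p arm are shown because members with nearly the same letters stood on opposite sides of no change:
miR166-4.1-3p: tTCGGACCaggcttcattccc
miR166-4.2-3p: tTCGGACCaggcttcattcc
miR166-9-3p: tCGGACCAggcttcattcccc
miR166-13-3p: tCGGACCAggcttcattc
miR166-8.1-3p: tCGGACCAggcttcaatccct
miR166-7.1-3p: tCGGACCAggcttcaatcc
miR166-5.1-3p: tCGGACCAggcttcaatc
The 18-nt miR166-13-3p is the start of miR166-9-3p, and both the 19-nt miR166-7.1-3p and the 18-nt miR166-5.1-3p are starts of miR166-8.1-3p. Counted from 1 at the 5′ end, miR166-9-3p and miR166-8.1-3p differ by T16A and C21T, so that miR166-13-3p and miR166-5.1-3p differ by T16A alone. The tag miR166-4.1-3p starts 1 base earlier and shares a run of 20 bases with miR166-9-3p, which moves its bases 2 to 8.

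The 5 isomiRs of miR528, a grass family known in rice to act on ascorbate oxidase and other copper proteins, are shown because they came from 1 precursor, pre-miR528-1 at chr5A:663320619-663320737 (plus strand, IWGSC RefSeq v1.0, as placed by the authors):
miR528-1.1-5p: gCAGCAGCggtggaaggggc
miR528-1.2-5p: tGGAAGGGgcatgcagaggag
miR528-1.5-5p: gGAAGGGGcatgcagaggagc
miR528-1.3-3p: cCTGTGCCtgcctcttccatt
miR528-1.4-3p: tGCCTGCCtcttccattcctg
On the 5p arm miR528-1.5-5p starts 1 base after miR528-1.2-5p and shares 20 bases with it. On the 3p arm miR528-1.4-3p and miR528-1.3-3p share 17 bases. The paper's selected list of cleaved targets names only miR528-1.2-5p of these isomiRs, with superoxide dismutase and ascorbate oxidase.

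Other tags with a small p are shown with related forms where these were counted. They belong to miR169, which acts on NF-YA factors, miR396, which acts on growth-regulating factors, miR9772, known from wheat and its relatives, and to families of many-copy precursors, of which miR1133-72-3p and miR1121-18-3p stand alone and are shown because all 4 pools were lower without overlap:
miR169-35-3p: aGGCGGTCaccttggctagc
miR169-34-3p: gGCGGTCAccttggctagc
miR169-43.1-3p: gGCGGTTAccttggctagc
miR396-5-5p: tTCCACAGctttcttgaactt
miR396-3-5p, 20 nt: tTCCACAGctttcttgaact
miR9772-5-5p: cGTTGAGAtgagattacccca
miR9772-2.2-5p: gTTGAGATgagattaccccat
miR9772-4-5p: tGAGATGAgattaccccata
miR1136-1111-3p: cCGAGACAagtaattccgaacgaa
miR1136-1373-5p: tTCGGAATtacttgtcgcaga
miR1133-72-3p: aGTACAAAgttgggtcat
miR1121-18-3p: aGTGATCTaaacgctctta
The tag miR169-34-3p is miR169-35-3p without its first base, and differs from miR169-43.1-3p by C7T. The 20-nt miR396-3-5p is miR396-5-5p without its last base. The deposited table lists miR1133-72-3p and miR1121-18-3p as the reverse complement of the letters given here, which follow the authors' tag list, so the strand of these 2, and with it their bases 2 to 8, is uncertain.

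The 4 libraries of 1 DAT held 127692 to 157709 miRNA reads and those of 4 DAT 115904 to 300261, with 199 to 202 tags detected in each. Mean totals of 139157 ± 13855 and 184571 ± 81062 reads (SD, n = 4) did not differ beyond their spread (exact permutation test, two-sided, p = 0.343, where 4 against 4 libraries cannot go below 0.0286). Family miR166 held 79.4% ± 2.18 of the reads at 1 DAT and 83.1% ± 3.53 at 4 DAT (exact p = 0.2), higher at 4 DAT in 2 of the 4 pools. Levels are given as RPM, the counts rescaled to a common library size after TMM scaling, which sets the bulk of the tags equal between libraries, so that the RPM of a library do not sum to a fixed total. Scaling factors ranged from 0.903 to 1.43 at 1 DAT and from 0.666 to 0.900 at 4 DAT, and pool 2 supplied both extremes. With plain library totals the median log2 fold change of all tags would be -0.37 in place of -0.0071, so every difference given here is relative to the bulk of the tags. In RNA from whole leaf samples, fewer cells that hold a tag and less of it per cell cannot be told apart.

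No tag passed the test between 4 and 1 DAT in heat-stressed plants. With edgeR's quasi-likelihood test and the Benjamini-Hochberg adjustment, 0 of 202 tags had a false discovery rate (FDR) under 0.05 (0% called), and the smallest FDR was 0.111. An unadjusted p under 0.05 was found for 17 tags (8.42%), 6 higher at 4 DAT (2.97%) and 11 lower (5.45%). With plain library totals this count was 27. With plant pools as blocks 0 tags were called and 11 had such a p (5.45%). The likelihood ratio test of edgeR, which is the test the paper used, called 5 tags (2.48%). These were miR166-7.1-3p as higher at 4 DAT and miR166-13-3p, miR528-1.3-3p, miR1133-72-3p and miR1121-18-3p as lower. The same test called 0 once the pools were blocked. Restricting the quasi-likelihood test to tags with a mean count of at least 10 called miR166-7.1-3p alone (FDR = 0.0391). DESeq2 called 3 of these 5 (1.49%), miR166-7.1-3p, miR166-13-3p and miR528-1.3-3p. No family passed either: 0 of 37 families had an FDR or an unadjusted p under 0.05 by edgeR, and the smallest FDR was 0.969 (0 called by DESeq2 or the likelihood ratio test as well). The families with the smallest p were miR171 (log2 fold change -0.46 ± 0.24, SE) and miR166 (0.42 ± 0.22, SE).

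A p that misses the threshold does not show that levels were equal. The 95% interval of the log2 fold change lay within 2-fold in either direction for 92 tags and reached beyond it for 110. Its median half-width was 0.94 for the 75 tags with a mean count under 20 and 0.68 for the other 127. Over all tags the log2 fold change ran from -1.90 to 1.56, with 100 tags above 0, 102 below 0 and 12 beyond 1 in size.

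**Figure D1:**
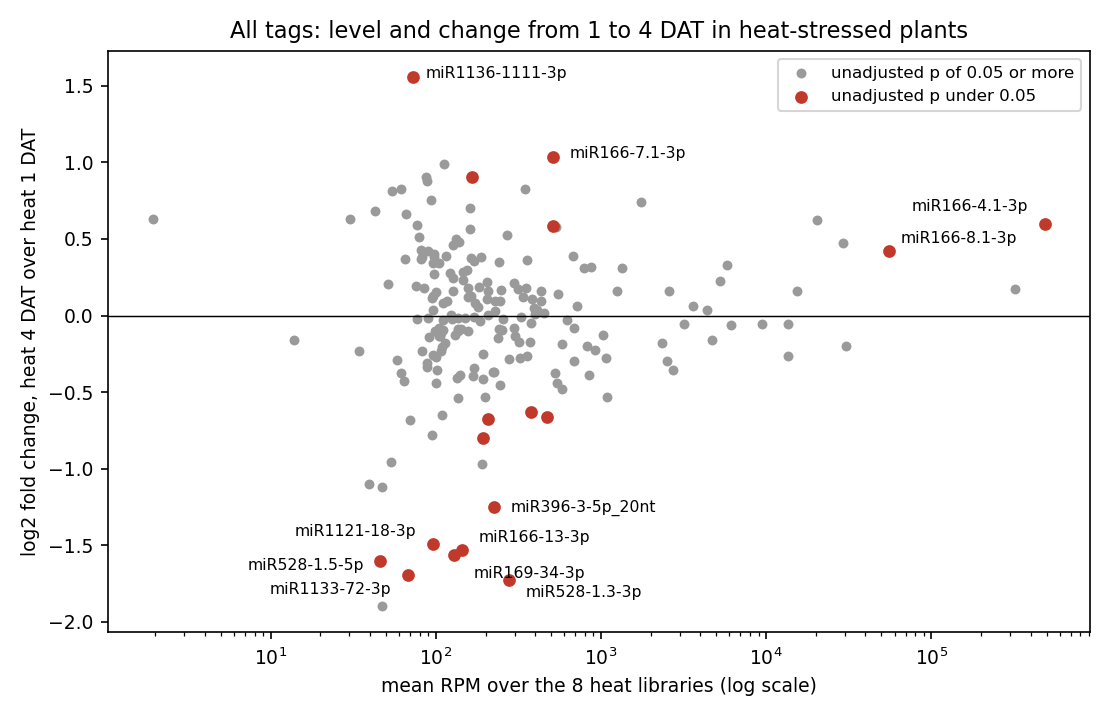
Each of the 202 points is a tag, with its mean RPM over the 8 heat libraries on a log scale (x axis) and its log2 fold change of 4 over 1 DAT (y axis). The 17 tags with an unadjusted p under 0.05 are drawn in red, and those beyond 1 in size other than miR166-7.1-3p are all of low abundance, while the most abundant tag, miR166-4.1-3p, is at 0.60.

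The same plants had been compared with their controls on each day in the same fit. Heat and control differed at an FDR under 0.05 in 35 tags at 0 DAT (17.3%; 18 higher in heat, 8.91%, and 17 lower, 8.42%), 23 at 1 DAT (11.4%) and 0 at 4 DAT (26 at an unadjusted p under 0.05, 12.9%, by edgeR), and heat-stressed plants differed between 1 and 0 DAT in 4 (1.98%). Unstressed plants gave 0 calls between 4 and 1 DAT (5 at an unadjusted p under 0.05, 2.48%, and 0 by the likelihood ratio test or DESeq2), and the 5 became 13 without replicate 4 of the controls at 1 DAT. The root mean square of the log2 fold changes over all tags was 0.52 in both heat and control. Between group means of log2 RPM, with a prior of 2 counts, it was 0.46 in heat and 0.31 in control. The prior damps tags of few reads. The difference of the 1 to 4 DAT change between heat and control was tested as an interaction and also gave 0 calls, with a smallest FDR of 0.993 by edgeR and 0 calls by the likelihood ratio test or DESeq2. An unadjusted interaction p under 0.05 was found for 5 tags (2.48%): miR166-7.1-3p and miR1136-1111-3p on the higher side (0.99%), and miR528-1.3-3p, miR1122-943-3p and miR1137-264-3p, the last chosen after its values were seen, on the lower side (1.49%). With blocks it was 4 (1.98%), and 2 (0.99%) for the control contrast, and leaving out 1 library gave 3 to 9 for the interaction, the highest without replicate 2 of heat at 1 DAT.

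**Figure D2:**
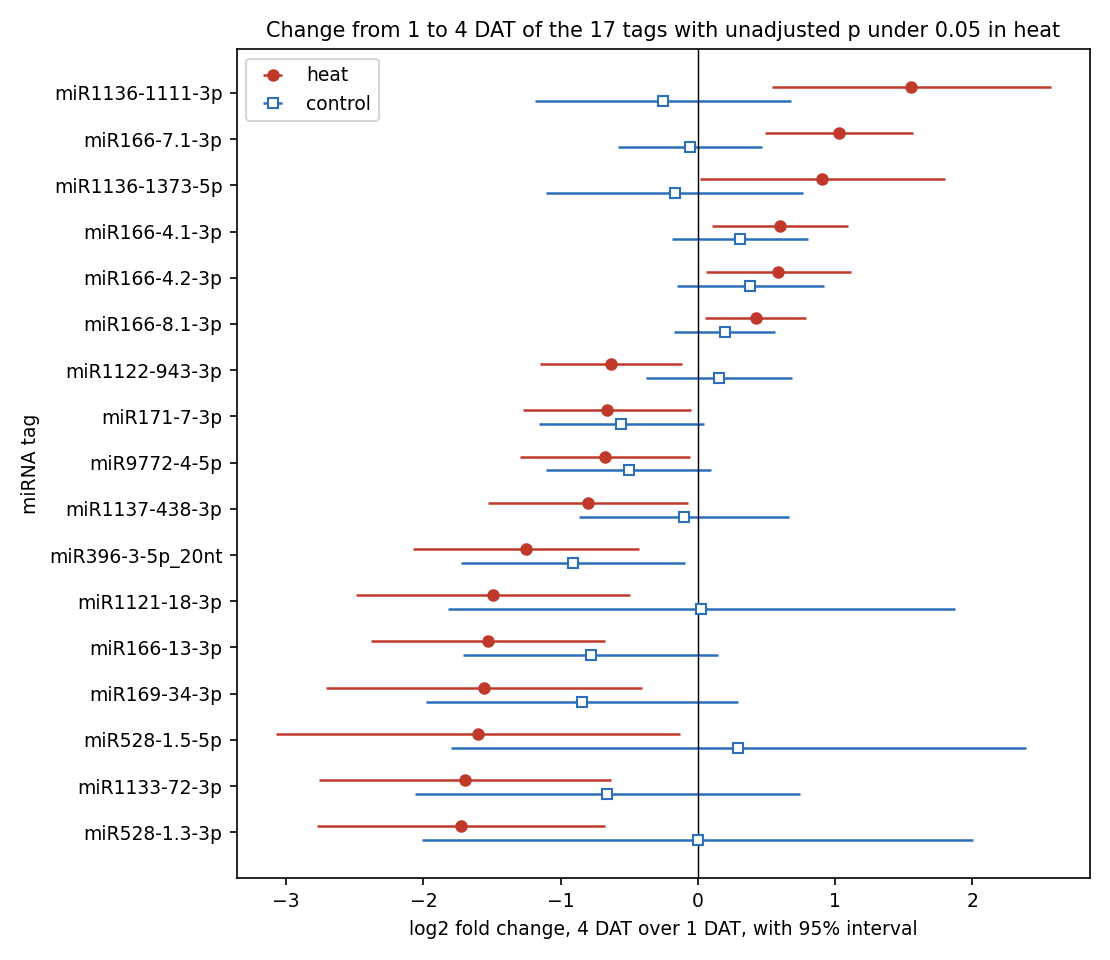
Log2 fold changes of 4 over 1 DAT with 95% intervals (x axis) for the 17 tags with the smallest unadjusted p in heat (y axis), in heat-stressed plants (red circles) and control plants (blue squares). The heat intervals leave out 0 because the tags were chosen so, while the control values of miR166-7.1-3p, miR528-1.3-3p and miR1121-18-3p lie near 0 and those of miR166-13-3p and the 20-nt miR396-3-5p on the same side as in heat. The control value of miR1121-18-3p rests on 0 to 4 reads per library.

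Of the tags higher at 4 DAT, miR166-7.1-3p had the smallest p. It stood at 357, 396, 336 and 248 RPM in pools 1 to 4 at 1 DAT and at 625, 611, 777 and 732 RPM at 4 DAT. All 4 pools were higher at 4 DAT and the days did not overlap. The log2 fold change was 1.03 ± 0.26 (SE, 95% interval 0.49 to 1.57, edgeR FDR = 0.111). Leaving out 1 library at a time gave 0.92 to 1.17, and plain library totals 0.64 with an edgeR FDR of 0.419. Control plants held 701 ± 126 RPM at 1 DAT and 672 ± 226 at 4 DAT (SD, n = 4), so the heat libraries lay below every control library at 1 DAT and among them at 4 DAT. The log2 effect of heat against control was -1.06 at 1 DAT (FDR = 0.0175) and 0.026 at 4 DAT (FDR = 0.968), and the difference between the 2 changes was 1.09 (95% interval 0.34 to 1.84, edgeR interaction FDR = 0.993). The heat libraries by which the tag was picked also enter these values, so they are not separate observations.

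The 24-nt tag miR1136-1111-3p had the largest positive value. Its RPM were 22.8, 53.4, 23.45 and 39.95 at 1 DAT and 94.95, 59.4, 201 and 90.15 at 4 DAT. The days did not overlap, although pool 2 differed little, and the tag rested on 3 to 12 reads per library at 1 DAT and 7 to 24 at 4 DAT. The log2 fold change was 1.56 ± 0.49 (SE, edgeR FDR = 0.142), against -0.25 in control plants (106 ± 53.0 and 82.7 ± 35.7 RPM, SD, n = 4). The related miR1136-1373-5p, whose letters match 16 bases of the other strand of miR1136-1111-3p, was also higher in all 4 pools, at 115 ± 40.8 RPM on the first day and 215.5 ± 94.7 on the second (log2 fold change 0.91 ± 0.43, SE, edgeR FDR = 0.559). A 21-nt tag held whole within miR1136-1111-3p, miR1136-1752-3p, chosen after its values were seen, had a log2 fold change of 0.095.

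The remaining 3 tags on the higher side were abundant or related to an abundant one. The tag miR166-4.1-3p, the most abundant of all, stood at 385608, 308535, 412959 and 450882 RPM at 1 DAT and 528813, 785116, 538958 and 508803 RPM at 4 DAT. All pools were higher and the days did not overlap, with a log2 fold change of 0.60 ± 0.24 (SE, edgeR FDR = 0.401). The 20-nt miR166-4.2-3p, which lacks its last base, had 0.59 ± 0.26 (SE, edgeR FDR = 0.451), and miR166-8.1-3p 0.42 ± 0.18 (SE, edgeR FDR = 0.451), each higher in 3 of 4 pools. With plain library totals these 3 values were 0.22, 0.19 and 0.045. Control plants had 0.31, 0.38 and 0.20 over the same days.

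Of the tags lower at 4 DAT, the short miR166-13-3p had the smallest p. It stood at 129, 160.1, 258 and 319.6 RPM at 1 DAT and at 15.8, 76.3, 105 and 93.9 RPM at 4 DAT, lower in all 4 pools and without overlap. The log2 fold change was -1.53 ± 0.41 (SE, 95% interval -2.38 to -0.67, edgeR FDR = 0.111). The reads behind it were 17 to 40 per library at 1 DAT and 2 to 25 at 4 DAT. In control plants the tag stood at 106 ± 57.9 and 62.9 ± 28.9 RPM (SD, n = 4), a log2 fold change of -0.78, and the 95% interval of the difference to heat ran from -2.02 to 0.53. At the end of the stress its level in heat had been 307 RPM against 45.9 in control. The 21-nt miR166-9-3p, which begins with the same 18 bases, had a log2 fold change of 0.18 ± 0.25 (SE), higher in 2 of 4 pools, and its sign turned with plain library totals (-0.15) and without pool 2 (-0.10). The other 18-nt form, miR166-5.1-3p, stood at 955 ± 126 and 728 ± 187 RPM (SD, n = 4), with -0.39 ± 0.31 (SE, edgeR FDR = 0.876).

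Family miR166 as a whole held 23 tags. Its 3p isomiRs with bases 2 to 8 CGGACCA numbered 10, of which 7 had a log2 fold change above 0 and 3 below, with a median of 0.25. The 6 with bases TCGGACC, shifted by 1 base, had 4 above 0 and a median of 0.43. Over all 202 tags 43 were held whole in a longer tag of their family, and of these 27 had a lower log2 fold change than the most abundant longer form and 16 a higher one (median difference -0.15). For the 13 short ones of 18 or 19 nt the counts were 9 and 4 (median difference -0.31), with miR166-7.1-3p among the 4. Some of these tags share the same longer form, so the counts are not independent. The longer form taken for miR166-13-3p was the more abundant miR166-4.1-3p, not miR166-9-3p.

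Of the 5 isomiRs of miR528, 2 had an unadjusted p under 0.05, both lower at 4 DAT, and the other 3 lay within 1 SE of 0. Over all 202 tags 17 had such a p by edgeR (8.42%), with 11 on the lower side (5.45%). The 3p tag miR528-1.3-3p stood at 471, 520.4, 227 and 495 RPM at 1 DAT and at 198, 102, 86.3 and 128 RPM at 4 DAT. Every pool was lower at 4 DAT and the days did not overlap. The log2 fold change was -1.73 ± 0.51 (SE, 95% interval -2.78 to -0.67, edgeR FDR = 0.142), and -1.59 to -1.99 when 1 library at a time was left out. In control plants it was 144 ± 108 and 139 ± 109 RPM (SD, n = 4), a log2 fold change of -0.00053, and the difference between heat and control was -1.73 (95% interval -3.24 to -0.21, edgeR FDR = 0.993). This tag was below control at 0 DAT (log2 effect of heat -1.67, FDR = 0.0374), above it at 1 DAT (1.60, FDR = 0.0461) and near it at 4 DAT (-0.12, FDR = 0.913). The effects at 1 and 4 DAT use the same heat libraries as the change between these days.

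The other 3p tag, miR528-1.4-3p, stood at 121, 40.03, 93.8 and 87.9 RPM on the first day and 150.3, 136, 47.9 and 90.15 on the second. The days overlapped, and the log2 fold change was 0.34 ± 0.56 (SE, edgeR FDR = 0.965). On the 5p arm miR528-1.1-5p had 1032, 658, 594 and 519 RPM at 1 DAT and 1005, 1170.2, 690.4 and 619.8 at 4 DAT, after 0 to 21.8 RPM in the heat libraries of 0 DAT. The values lay near those of control on both days (log2 effect of heat -0.068 and 0.38), and 4 over 1 DAT gave 0.31 ± 0.37 (SE, edgeR FDR = 0.950). The tag miR528-1.2-5p stood at 365 ± 98.3 and 396 ± 87.8 RPM (SD, n = 4; 0.11 ± 0.28, SE). The 1-base shifted miR528-1.5-5p had 167, 66.7, 39.1 and 7.99 RPM and then 47.5, 8.48, 9.59 and 22.5 RPM, lower in 3 of 4 pools on 1 to 22 reads per library (log2 fold change -1.60 ± 0.72, SE, edgeR FDR = 0.451), and its value was -0.82 without replicate 1 of 1 DAT and -2.13 without replicate 1 of 4 DAT. With plain library totals the values of miR528-1.1-5p, miR528-1.2-5p and miR528-1.4-3p turned to -0.11, -0.27 and -0.014.

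**Figure D3:**
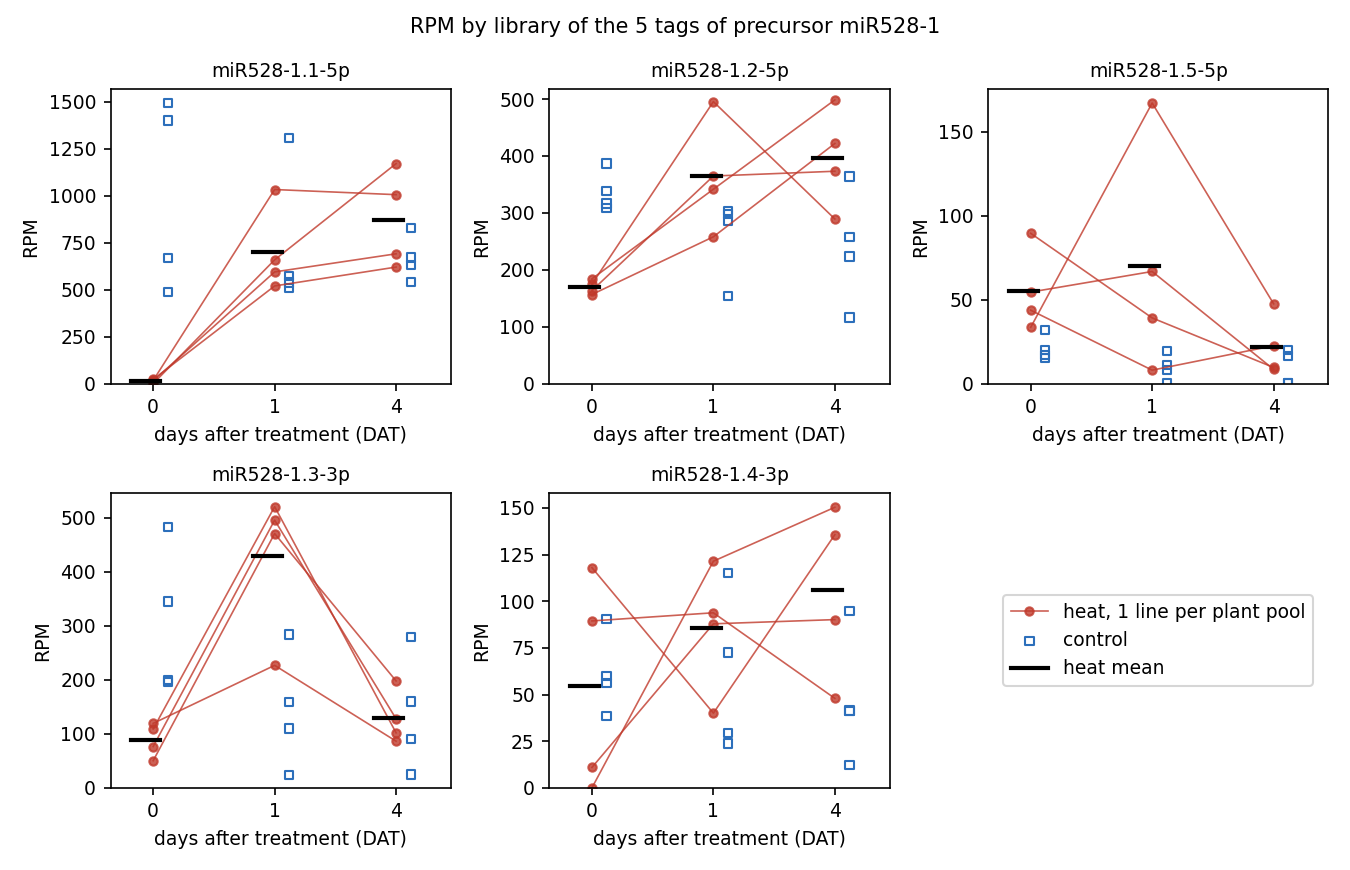
RPM (y axis) of the 5 miR528 isomiRs at 0, 1 and 4 DAT (x axis, evenly spaced), with 1 red line per heat-stressed plant pool, black bars for the heat mean and blue squares for the control libraries. The 4 lines of miR528-1.3-3p peak at 1 DAT and drop to between 86.3 and 198 RPM, whereas those of miR528-1.1-5p leave 0 to 21.8 RPM at 0 DAT and stay above 500 RPM on both later days.

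Among the short tags of many-copy families, miR1133-72-3p stood at 98.7, 102, 102 and 112 RPM at 1 DAT and 63.3, 16.96, 19.2 and 26.3 RPM at 4 DAT. The days did not overlap. The libraries of 1 DAT held 104 ± 5.72 RPM (SD, n = 4), and so few reads cannot establish a spread this small. The log2 fold change was -1.70 ± 0.52 (SE, edgeR FDR = 0.142), on 13 to 23 reads per library at 1 DAT and 2 to 8 at 4 DAT. Pools 2 and 3 held 2 reads each at 4 DAT, under the floor of 3 reads. Control plants held 22.7 ± 11.7 and 12.01 ± 10.49 RPM (SD, n = 4) with a log2 fold change of -0.66, and the 95% interval of the difference to heat ran from -2.88 to 0.81.

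The tag miR1121-18-3p is nearly absent from unstressed plants, with 0 to 16.5 RPM in the control libraries of 1 and 4 DAT. In heat-stressed plants it had 182, 129, 141 and 128 RPM at 1 DAT and 23.7, 16.96, 67.1 and 82.6 RPM at 4 DAT, without overlap. Heat reads were 16 to 29 per library at 1 DAT and 2 to 22 at 4 DAT, where pools 1 and 2 lay at or under the floor of 3 reads. The log2 fold change was -1.49 ± 0.48 (SE, edgeR FDR = 0.142). Even so the log2 effect of heat against control was 4.68 at 0 DAT, 4.13 at 1 DAT and 2.61 at 4 DAT, where it did not pass (FDR = 0.0636). A fold in these comparisons depends on the few reads of the controls.

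**Figure D4:**
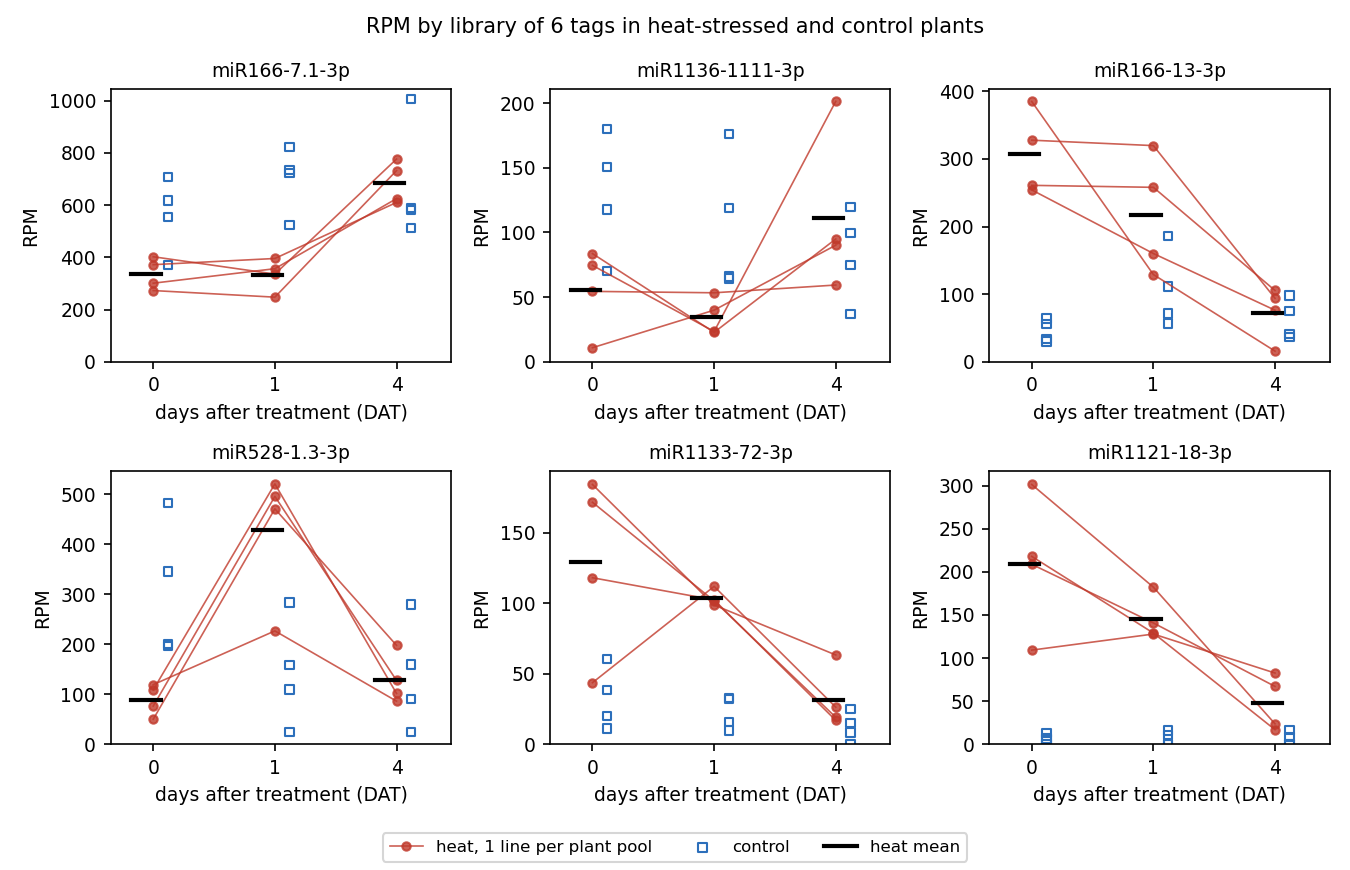
RPM (y axis) at 0, 1 and 4 DAT (x axis, evenly spaced) of 6 tags, with 1 red line per heat-stressed plant pool, black bars for the heat mean and blue squares for the control libraries. From 1 to 4 DAT the lines of miR166-7.1-3p and miR1136-1111-3p go up and those of miR166-13-3p, miR528-1.3-3p, miR1133-72-3p and miR1121-18-3p go down, and at 4 DAT the heat libraries of miR1121-18-3p still lie above the control ones, by a small margin in pool 2. That pool 2 value rests on 2 reads.

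The 20-nt miR396-3-5p stood at 402, 191, 492 and 192 RPM at 1 DAT and at 79.1, 93.3, 144 and 199 RPM at 4 DAT. Pool 4 did not follow the other 3, and the days overlapped. Its log2 fold change was -1.25 ± 0.40 (SE, edgeR FDR = 0.142) and that of control plants -0.91, while the 21-nt miR396-5-5p stood at 32559 ± 10998 and 28364 ± 8889 RPM (SD, n = 4; -0.20 ± 0.35, SE). The shortened miR169-34-3p had 296, 187, 195 and 87.9 RPM and then 119, 59.4, 67.1 and 26.3 RPM. It was lower in all 4 pools with 1 library of 1 DAT inside the range of 4 DAT, and its log2 fold change was -1.56 ± 0.56 (SE, edgeR FDR = 0.249) against -0.84 in control. The longer miR169-35-3p was lower in all pools too (-1.103 ± 0.74, SE, edgeR FDR = 0.823), as was miR169-43.2-3p (-1.12 ± 0.79, SE). Against this miR169-43.1-3p, 1 base different from miR169-34-3p, was higher in all 4 pools on 0 to 16 reads per library (0.81 ± 0.74, SE, edgeR FDR = 0.876), with 0.31 without replicate 2 of 1 DAT and 1.66 without replicate 1 of 1 DAT.

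Of the other tags with an unadjusted p under 0.05, miR1122-943-3p stood at 460.3 ± 113 RPM at 1 DAT and 295 ± 72.0 at 4 DAT (SD, n = 4), with a log2 fold change of -0.63 ± 0.25 (SE, edgeR FDR = 0.401) against 0.15 in control. Its letters share 17 bases with miR1135-836-5p, which had 0.83 ± 0.44 (SE, edgeR FDR = 0.672). Lower values were also found for miR1137-438-3p, in all 4 pools (-0.80 ± 0.35, SE), for miR9772-4-5p (-0.67 ± 0.30, SE) and for miR171-7-3p, of a family that acts on GRAS factors (-0.66 ± 0.30, SE), all 3 with an FDR of 0.451. In control plants miR171-7-3p had -0.56 and miR9772-4-5p -0.51.

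The 3 shifted forms of miR9772 were all lower in value. The tag miR9772-5-5p stood at 850.1, 832, 961 and 863 RPM at 1 DAT and 815, 780.1, 767 and 687 RPM at 4 DAT. The days did not overlap, yet the difference was small (log2 fold change -0.20 ± 0.25, SE, edgeR FDR = 0.950), and miR9772-2.2-5p, shifted by 1 base, had -0.78 ± 0.51 (SE, edgeR FDR = 0.811) with all 4 pools lower. All 3 tags with bases 2 to 8 GAGATGA, the seed of miR9772-4-5p, were below 0, with a median of -0.41.

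Counting all tags, the days did not overlap for 8 (3.96%), of which 3 were higher at 4 DAT (1.49%) and 5 lower (2.48%), against 1 (0.495%) in control. All 4 heat pools were higher for 12 tags (5.94%) and lower for 13 (6.44%), against 4 (1.98%) and 6 (2.97%) in control. Distances between libraries, as the root mean square difference in log2 RPM over the tags, averaged 0.83 among the libraries of 1 DAT, 0.81 among those of 4 DAT, 0.90 between the 2 days of the same pool and 0.82 between the days of different pools. Libraries of the 2 days were thus about as far apart as replicates of 1 day. Between group means the distance was 0.46 for heat at 1 and 4 DAT, 0.31 for control at 1 and 4 DAT and 0.60 for heat at 0 and 1 DAT.

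Tags grouped by their response at the end of the stress, a contrast that used no library of 1 or 4 DAT but the same plants, gave the following. The 18 tags higher in heat than in control at 0 DAT had a median log2 fold change of -0.38 from 1 to 4 DAT, with 16 below 0, 0 called and 3 at an unadjusted p under 0.05. All 4 pools were lower for 6 of them, and 4 of the 5 tags without overlap on the lower side were in this group. Pool medians ran from -0.64 to -0.28. In control plants the same tags had a median of -0.16 and 11 of 18 below 0. The median over all 202 tags was -0.0071, with 102 below 0. Of all tags 11 were lower at an unadjusted p under 0.05 (5.45%) and 13 were lower in all 4 pools (6.44%). With plain library totals the values were -0.72 for the group and -0.37 for all tags. The median effect of heat against control in the group was 1.60 at 0 DAT, 0.88 at 1 DAT and 0.57 at 4 DAT, the latter 2 from libraries also used in the change. Its members include miR1120-2337-3p (87.5 ± 35.2 and 52.9 ± 27.2 RPM, SD, n = 4) and miR167-1-5p, of a family that acts on auxin response factors (356 ± 120 and 295 ± 129 RPM), neither of which passed the test.

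The 17 tags lower in heat at 0 DAT had a median of 0.13, with 11 above 0, and -0.012 in control, where 7 were above 0. Without replicate 4 of 4 DAT the median was 0.018, and with plain library totals -0.27. The only member without overlap, miR528-1.3-3p, was lower at 4 DAT. Higher values were those of miR1135-757-5p (0.88 ± 0.46, SE, edgeR FDR = 0.672) and miR1122-1462-3p (0.70 ± 0.41, SE, edgeR FDR = 0.754), which were 0.45 and 0.48 without replicate 4 of 4 DAT and 1.38 and 1.07 without replicate 2 of 1 DAT. The tag miR1121-33-5p stood at 1182 ± 431 and 1321 ± 259 RPM (SD, n = 4).

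By length, the 17 tags of 18 or 19 nt had a median of -0.37 (12 below 0, 4 of them at an unadjusted p under 0.05), the 21 of 20 nt 0.036, the 116 of 21 nt -0.083, the 18 of 22 or 23 nt 0.095 and the 30 of 24 nt 0.37 (26 above 0, 1 at an unadjusted p under 0.05). Over all 202 tags 102 were below 0 and 11 were lower at an unadjusted p under 0.05 (5.45%). On the higher side 100 were above 0 and 6 had such a p (2.97%). The short class and the tags higher in heat at 0 DAT share 7 tags (41.2% of the first and 38.9% of the second), so the 2 groups are not separate observations. In control the medians of the shortest and the longest class were -0.20 and 0.15, with 12 of 17 below 0 and 18 of 30 above 0. Among heat pools the medians of the 24-nt class ranged from 0.026 to 0.66 and those of the short class from -0.44 to 0. Without replicate 4 of 4 DAT, the deepest library, the 24-nt median was 0.22 and the short one -0.59, and without pool 2 they were 0.46 and -0.19. The 24-nt tags, the length usually made by DICER-LIKE3, held 0.372% ± 0.156 of the reads at 1 DAT and 0.347% ± 0.0966 at 4 DAT (SD, n = 4), and with plain library totals their median was -0.043. Members were miR1136-1111-3p, miR1135-757-5p and miR1122-1462-3p at the upper end. The first shares a run of 22 bases with the reverse complement of miR1135-757-5p as written by the authors, whose strand is uncertain in the same way as above, so both may count related RNA.

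**Figure D5:**
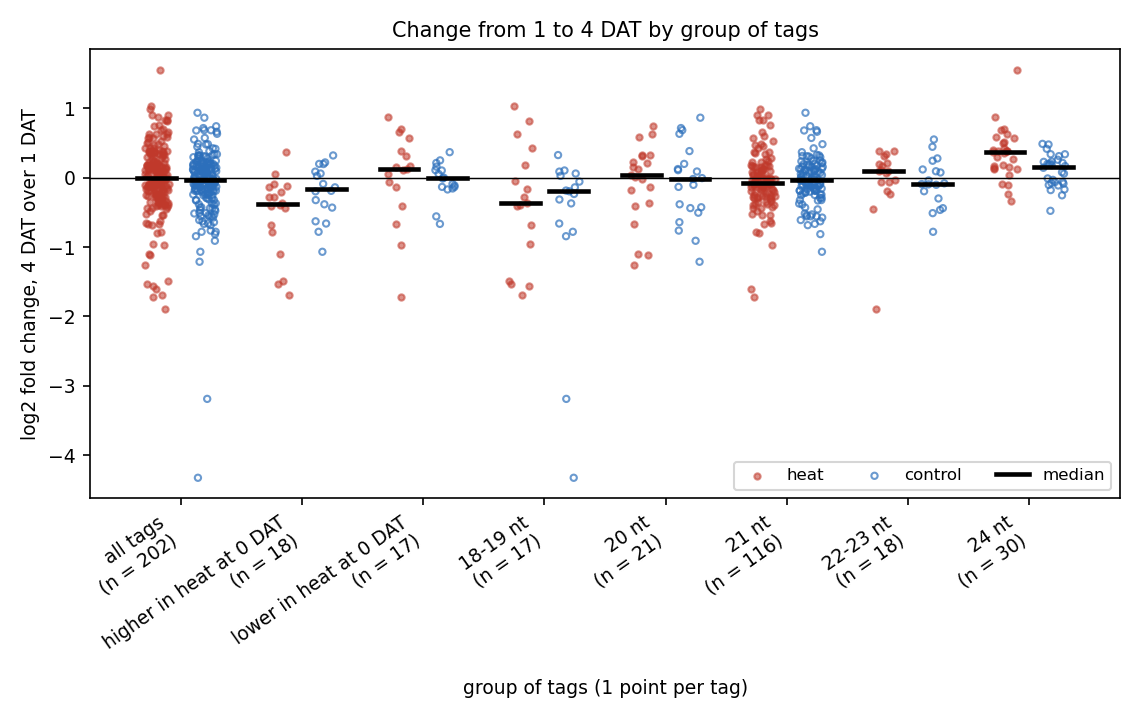
Log2 fold change of 4 over 1 DAT (y axis) of every tag by group (x axis, number of tags in brackets), in heat-stressed plants (filled red) and control plants (open blue), with medians as black bars. The heat medians of -0.38 for tags higher in heat at 0 DAT, -0.37 for 18 to 19 nt and 0.37 for 24 nt stand furthest from the -0.0071 of all tags, and the control medians of the same 3 groups lie on the same side of 0.

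By function, the 55 tags of transcription factor families had a median of 0.095 (31 above 0), the 5 of miR393 and miR394, which act on auxin receptors and an F-box protein, -0.16 (all below 0, but 0.015 without replicate 3 of 1 DAT), the 22 of cereal families -0.057, the 101 of many-copy families 0.0015 and the 8 of all other families 0.064. None held a called tag. The many-copy list was set by family name, and some of its tags, such as miR1121-6-5p, matched 1 precursor. The 5p and 3p arms had medians of 0.019 and -0.049, and tags beginning with A, C, G and T of 0.0015, 0.0025, 0.12 and -0.026. First bases follow the authors' tag list, to which 35 of 202 tags were turned, so the class of a turned tag is uncertain. The 11 tags of copper and nutrient families had a median of 0.11 and spread from -1.90 to 0.99. Of miR398, which acts on copper/zinc superoxide dismutase, miR398-1.1-5p stood at 75.9, 200.2, 23.45 and 7.99 RPM and then at 15.8, 8.48, 0 and 45.1 RPM, and miR398-1.2-3p at 37.95, 178, 46.9 and 24.0 RPM and then at 222, 67.8, 115 and 203 RPM. Of these tags the paper's selected list of cleaved targets names only miR398-1.2-3p, with superoxide dismutase. Pool 2 was the highest of 1 DAT in both tags. The reads of miR398-1.1-5p were 10, 45, 3 and 1 at 1 DAT and 2, 1, 0 and 12 at 4 DAT, so most libraries of 4 DAT lay under the floor of 3 reads. The log2 fold changes of miR398-1.1-5p and miR398-1.2-3p were -1.90 ± 0.97 and 0.99 ± 0.85 (SE, edgeR FDR = 0.672 and 0.876), and the first was -0.67 without replicate 2 of 1 DAT and -3.14 without replicate 4 of 4 DAT. The phosphate-related miR399-18-3p stood at 598 ± 205 RPM at 1 DAT and 459 ± 31.8 at 4 DAT (SD, n = 4; -0.37 ± 0.30, SE), with control at 253 ± 138 and 199 ± 43.3, and its effect of heat against control was 1.23 at 1 DAT (FDR = 0.0175) and 1.19 at 4 DAT (FDR = 0.0636). Of the sulfate-related miR395, the 20-nt miR395-18-3p stood at 159, 294, 70.35 and 23.97 RPM and then at 103, 50.88, 28.8 and 432 RPM. It was lower in 3 pools and higher in pool 4, with a log2 fold change of 0.23 ± 1.00 (SE, edgeR FDR = 0.965). The other miR395 tags were sparse, with mean levels of 1.998 and 1.88 RPM for miR395-7-3p and 14.97 and 12.6 RPM for miR395-41-3p.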

How the data were processed

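Small RNA of 24 leaf libraries was sequenced, each in several MiSeq runs. The deposited values are raw counts per tag and library, without normalization: the authors kept reads of 18 to 24 nt, retained tags with at least 10 RPM in a library and matched them without mismatch to precursors in IWGSC RefSeq v1.0. The submitters' processing notes name FastQC and Bowtie2 (versions not given in the sources used here). Tag names and orientation were taken from the authors' tag list by sequence, and 35 of 202 tags were turned to its orientation. No marker of a tissue can be checked in a table of miRNA tags. The table holds no fold changes or p-values of the authors.

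Counts were scaled by TMM and tested with edgeR 4.0.16 (estimateDisp, glmQLFit, glmQLFTest; R 4.3.3, limma 3.58.1) in 1 fit of all 6 groups. All 202 tags entered, p-values were adjusted over them after Benjamini and Hochberg, and calls needed an FDR under 0.05. Standard errors come from this fit. Family counts used the same library sizes. Distances and pool differences were taken from log2 RPM after adding a prior of 2 counts. The paper used edgeR's likelihood ratio test at the same FDR threshold, and the quasi-likelihood test was used here in its place. Alternatives were DESeq2 1.42.0, the likelihood ratio test, RLE, upper quartile and library sizes without miR166 as scalings, a mean count of at least 10, the 8 libraries alone, plant pools as blocks and each library left out. Plain library totals, the likelihood ratio test with blocks and the fit without pool 2 were added after seeing the data. Values with 1 number per library were compared by exact permutation. Python 3.11.15 with pandas 2.3.3, numpy 2.4.6 and matplotlib 3.10.9 was used for tables and plots.

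The pools pair the days by the study's sampling. In the data, deviations of the same-numbered libraries of 1 and 4 DAT had correlations of 0.06, -0.55, 0.00 and -0.24 over 122 tags with a mean count of at least 20, so pairing was not visible. No 2 replicates of a group agreed within sampling noise (lowest chi-square per degree of freedom 10.1 over 12 pairs).

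Tags named were those with the smallest unadjusted p per direction (up to 10), the 10 most abundant, those of miR528, miR398, miR395, miR399, miR393, miR394, miR169 and miR9772, and 9 that the study singles out. Members, lists and this rule were chosen with earlier results of these data known. Counting error alone sets a floor of 3 reads, 11.3 to 28.8 RPM in the 8 libraries.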

Additional observations from a re-analysis of the deposited data

Results flagged for a closer look

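In 86 groups of 4 heat libraries (39 tags and 4 library values on 2 days), 6 had a library far from the other 3 by Dixon's test at the 95% level, which chance alone gives in about 1 in 20 groups. Replicate 3 of 1 DAT was low in miR528-1.3-3p at 226.68 RPM, the next being 470.57. Replicate 2 of 4 DAT was high in miR166-4.1-3p (785116 RPM, next 538958) and in miR396-5-5p (41593 RPM, next 25140), and had the lowest scaling factor (0.666, next 0.871). Replicate 2 of 1 DAT was high in miR398-1.2-3p (178 RPM, next 46.9) and had 200 tags detected against 201 in the other 3. Of these 6, 5 belong to plant pool 2. They are not all separate observations, because the scaling factor of 0.666 enters the RPM of replicate 2 of 4 DAT. The part of that pool in the results was not tested beyond the fit without it, in which 0 tags were called by edgeR and 16 had an unadjusted p under 0.05.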

How the results depend on the processing

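The count of 0 called tags in heat held under 3 other scalings, plain library totals, an FDR threshold of 0.10, the 8 libraries alone, pools as blocks, the fit without pool 2 and each library left out, where 11 to 20 tags had an unadjusted p under 0.05 by edgeR (27 with plain library totals). It was 1 (miR166-7.1-3p, FDR = 0.0391) with a mean count of at least 10, 5 with the likelihood ratio test and 3 with DESeq2. The replicate block gave 0 calls and 11 tags at an unadjusted p under 0.05 in heat, 2 in control and 4 for the interaction by edgeR, and 0 calls for the likelihood ratio test. It changed no other call. Blocks on the libraries of each contrast alone gave 0 calls. Such a p was then found for 9 tags in heat, 1 in control and 2 for the interaction. Control, interaction and family counts stayed at 0 in every alternative run for them, with 3 to 13, 3 to 9 and 0 to 2 at an unadjusted p under 0.05 when 1 library was left out. The differences in reads, tags detected and miR166 share kept their side of the threshold in each alternative run. Among these, an exact sign-flip test over the 4 pools cannot go below p = 0.125, so it could not have crossed the threshold. Of 775 values of 39 named tags under alternatives, 11 changed sign, all in tags whose 95% interval included 0: miR1121-33-5p (-0.0064 without replicate 1 of 1 DAT, -0.26 with plain totals), miR528-1.2-5p (-0.012 without replicate 3 of 1 DAT, -0.024 without replicate 1 of 4 DAT, -0.27 with plain totals), miR396-5-5p (0.017 without replicate 3 of 1 DAT), miR528-1.4-3p (-0.063 without pool 2, -0.014 with plain totals), miR166-9-3p (-0.10 without pool 2, -0.15 with plain totals) and miR528-1.1-5p (-0.11 with plain totals). Left-out libraries gave ranges of -0.024 to 0.29 (miR528-1.2-5p), -0.44 to 0.017 (miR396-5-5p) and -0.0064 to 0.43 (miR1121-33-5p). Plain library totals moved the group medians to -0.37 (all tags), -0.26 (transcription factor families), -0.43 (cereal), -0.39 (many-copy), -0.34 (other families), -0.67 (18 to 19 nt), -0.31 (20 nt), -0.45 (21 nt), -0.25 (22 to 23 nt), -0.043 (24 nt), -0.34 (5p), -0.41 (3p), -0.36, -0.39, -0.27 and -0.40 (first base A, C, G and T), -0.72 (higher in heat at 0 DAT) and -0.27 (lower in heat at 0 DAT). Tags beginning with C, whose pools lay close together, also moved to -0.045 (RLE), 0.055 (upper quartile), -0.052 (DESeq2), 0.059 (replicate block on the 8 libraries) and 0.22 (without pool 2). Leaving out 1 library gave -0.029 to 0.059 for all tags, -0.59 to -0.26 for 18 to 19 nt, -0.12 to 0.031 for 21 nt, -0.045 to 0.045 for 3p, 0.0064 to 0.19 for first base C -0.36 to 0.015 for miR393 and miR394, 0.018 to 0.21 for tags lower in heat at 0 DAT and -1.19 to 0.13 for copper and nutrient families, where replicate 4 of 4 DAT gave the lowest. With 4 pools a day, the tags with a mean count under 20 had a median half-width of 0.94 for the 95% interval of the log2 fold change.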
